A study of Mus musculus and Rattus norvegicus with 32 samples.

Results

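The genes described here are the myosin heavy and light chains of heart muscle and the kinase that phosphorylates their regulatory light chain: Myh6, Myh7, Myh7b, Myl1, Myl2, Myl3, Myl4, Myl7 and Mylk3. They were chosen by symbol, as 9 of the 55487 genes listed for the mouse and 9 of the 32883 listed for the rat. Messenger RNA was sequenced in 32 libraries, 4 for each of 8 groups, and each comparison below sets 4 libraries against 4. The study asked what METTL5, a methyltransferase of the 18S ribosomal RNA, does in the heart. Hearts of C57BL/6 mice came from 1-month-old animals labelled METTL5-KO, a knockout not limited to one cell type, and their Ctrl littermates, from 3-month-old METTL5-cKO animals and their Ctrl, and from METTL5-cKO and Ctrl animals labelled as 3 months old and collected 4 weeks after transverse aortic constriction (TAC), which loads the left ventricle with pressure. METTL5-cKO animals carried Myh6-Cre and METTL5 fl/fl, with exons 2, 3 and 4 floxed, so the Cre was driven by the promoter of one of the genes described here. The alleles carried by the Ctrl animals are not given in the sources used here. Neonatal rat ventricular myocytes (NRVMs) were taken from Sprague Dawley rats at postnatal day 2 and pre-plated to remove fibroblasts. They received an adenovirus with the human METTL5 coding sequence (AdMETTL5) or with GFP (AdGFP), and both groups were treated with 20 μM phenylephrine (PE), an agonist of alpha-adrenergic receptors that makes these cells grow, for 24 h.

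Myosin II is the motor of the thick filament. A pair of heavy chains carries the ATPase heads, and each head binds an essential and a regulatory light chain. In the ventricle of adult mice and rats the fast alpha heavy chain, Myh6, predominates over the slow beta heavy chain, Myh7, which is the fetal form and is known to return under pressure overload. Myl3 and Myl2 are the essential and regulatory light chains of the ventricle, Myl4 and Myl7 are those of the atrium and of the embryonic heart, and Myl1 is the essential chain of fast skeletal muscle. Mylk3 is the cardiac kinase of Myl2, and Myh7b is a heavy chain related to Myh7.

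The 3 heavy chain genes each hold a microRNA in an intron, and these sequences are shown because each is made from an intron of a gene whose RNA is compared below. In the mouse genome (GRCm38.p6) miR-208a lies in intron 29 of Myh6 at chr14:54949072-54949093, miR-208b in intron 31 of Myh7 at chr14:54975710-54975731, both on the minus strand, and miR-499 in intron 19 of Myh7b at chr2:155622893-155622913 on the plus strand. Capitals mark the seed, bases 2 to 8 of the RefSeq mature sequence.
mmu-miR-208a-3p: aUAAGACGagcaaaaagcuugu
mmu-miR-208b-3p: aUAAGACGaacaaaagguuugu
mmu-miR-499-5p: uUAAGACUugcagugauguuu
The seeds of miR-208a-3p and miR-208b-3p are the same, and that of miR-499-5p ends in a different base. Small RNA was not measured in these libraries, so the values below are those of the host genes alone.

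Myh6 and Myh7 are neighbours on the minus strand of mouse chromosome 14, Myh6 (ENSMUSG00000040752) at 54941921 to 54966927 with 39 exons and Myh7 (ENSMUSG00000053093) at 54970684 to 54994626 with 41, separated by 3756 bases. Their promoters are shown with that of Myl3, since these genes share a searched motif. Any relation of the motif to the values below was not tested. The windows are the 250 bases before a RefSeq start on GRCm38.p6, and capitals mark the MCAT motif (CATTCC, on either strand) and, in Myl3, also the CArG box, the last run of capitals.
Myh6 promoter, chr14:54966608-54966857, minus strand: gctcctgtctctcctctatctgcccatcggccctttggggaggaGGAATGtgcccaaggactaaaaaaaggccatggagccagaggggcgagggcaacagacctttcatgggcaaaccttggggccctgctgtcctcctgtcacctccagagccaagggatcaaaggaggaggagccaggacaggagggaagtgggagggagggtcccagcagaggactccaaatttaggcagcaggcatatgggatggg
Myh7 promoter, chr14:54994627-54994876, minus strand: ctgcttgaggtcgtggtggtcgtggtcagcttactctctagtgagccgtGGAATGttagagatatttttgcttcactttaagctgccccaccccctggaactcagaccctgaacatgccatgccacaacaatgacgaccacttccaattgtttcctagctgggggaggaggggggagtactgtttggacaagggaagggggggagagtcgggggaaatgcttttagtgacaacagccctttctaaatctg
Myl3 promoter, chr9:110763428-110763677, plus strand: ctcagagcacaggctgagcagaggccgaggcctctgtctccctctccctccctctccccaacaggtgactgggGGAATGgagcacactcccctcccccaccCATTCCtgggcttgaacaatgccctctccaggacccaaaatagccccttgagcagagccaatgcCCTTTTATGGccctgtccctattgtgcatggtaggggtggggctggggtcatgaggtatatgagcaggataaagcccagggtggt
The MCAT motif begins 206 bases before the start of Myh6 and 201 bases before that of Myh7 shown here. Myh7 has another RefSeq start, whose window (chr14:54994550-54994799) overlaps the one shown. That window stops short of the motif and so holds no match. The motif was found for 6 of the 9 genes (12 windows in all), in Myh6, Myh7, Myl1, Myl3, Myl7 and Mylk3. Of 32851 promoter windows of the same length 12.6% hold it, a share of windows and not of genes. The CArG box was found in Myl3 and Myl7 (1.47% of all windows), and no window of these genes held the MEF2 motif (2.92%). The TATA box (TATAAA, 12.4% of all windows) was found in Myl1 and Myl2, the GATA motif (GATAAG, 6.55%) in Mylk3 and Myl7, and the thyroid hormone element (AGGTCA, 14.02%) in Myh7b and Myl2, on either strand and without overlapping another of these motifs. A match says only that these letters are there, and genes with several starts were searched in more than 1 window. Both windows of Myl2 lie upstream of chr5:122093188, while the gene starts at 122100951 in the GENCODE annotation. Several other windows, among them those of Mylk3, lie inside the span of their gene in that annotation. Matches and absences therefore hold for these windows alone.

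The 2 main heavy chains share long identical stretches of coding sequence. The coding sequences of Myh6 (5814 bases) and Myh7 (5805 bases) aligned with 91.5% identity, and 9 identical runs of 100 bases or more held 1578 bases, the longest 245. Reads within those runs could have been assigned to either gene, so levels of each carry that uncertainty. No run of 100 bases was shared by the other pairs compared, of which Myl3 and Myl4 were 73.2% identical, Myh7 and Myh7b 72.2%, Myl2 and Myl7 62.2%, and Myl1 and Myl3 55.3%.

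Total estimated counts ranged from 14324700 to 21804907 per library. The AdMETTL5 libraries (14324700 to 14642431) were shallower than the AdGFP libraries (17344430 to 18085339). The count of the whole Mettl5 gene did not separate the mouse genotypes. At 1 month it was 4.51 to 5.94 counts per 1000000 (CPM) in Ctrl and 5.26 to 6.71 in the hearts labelled METTL5-KO, so it was not lower there. It was 6.87 to 8.12 CPM in Ctrl and 5.61 to 7.28 in METTL5-cKO hearts at 3 months, and 5.62 to 7.14 and 5.60 to 7.32 after TAC. A count over the whole gene cannot show whether single exons are missing. The paper reports hardly any reads over the floxed exons in METTL5-cKO hearts. Since this count could not check the genotypes, the groups here rest on their labels, and METTL5-KO and METTL5-cKO below mean hearts so labelled. In NRVMs rat Mettl5 lay between 16.2 and 18.03 CPM with AdGFP and between 19.1 and 23.0 with AdMETTL5, where the virus carries the human sequence. A pair of libraries stood apart. Library 1 of the 1-month Ctrl hearts had 723 CPM of the natriuretic peptide gene Nppa against at most 187 in the other Ctrl libraries and 963 CPM of Actc1 against at least 2563. Library 4 of the METTL5-cKO hearts after TAC had 2223 CPM of Nppa against 5398 to 6163 in the rest of its group and 85.1 CPM of Postn, a matrix gene of activated fibroblasts, against 522 to 783. Values without these libraries are given where a call or a direction turns on them or a value moves by over 1.5 times. Library numbers in the groups other than those at 1 month only name columns, and no source says that every library is a separate animal or culture, so p-values measure the spread between these libraries. RNA came from whole tissue or dishes, and fewer cardiomyocytes cannot be told apart from less RNA in each of them.

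The ventricular chains made up a large share of heart RNA. The 9 genes together took 1.43 to 2.52% of all counts in the Ctrl hearts at 1 month, 2.64 to 3.14% at 3 months and 2.40 to 2.84% after TAC. Between genes, levels were compared as CPM per kb of the principal transcript. In Ctrl hearts at 3 months the order was Myl2 (7383 CPM per kb), Myl3 (3223), Myh6 (2560.3), Myh7 (611), Mylk3 (64.2), Myl1 (28.0), Myh7b (21.1) and Myl4 (1.69), with Myl7 near 0. The libraries of Myl3 and Myh6 overlapped in this group, as did those of Myl1 and Myh7b. In the Ctrl hearts after TAC the order was the same, and the overlapping neighbours were Mylk3 (46.4 CPM per kb) and Myl1 (36.5). At 1 month the overlapping neighbours were Myh6 (1288) and Myh7 (671), through library 1 alone, and Myl1 (21.1) and Myh7b (19.2).

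Sln and Bmp10, markers of atrial myocytes, were at or near 0 in the mouse hearts, with no library above 0.714 CPM of Sln. Other atrial markers of the same list of 8 were present. Ctrl hearts after TAC held 338 to 546 CPM of Nppa, 20.9 to 29.8 of Kcnj3 and 1.26 to 2.34 of Dkk3. Myl7 was listed at 0 counts in every mouse library but 3, which held 7, 10 and 11 counts (0.348 CPM in METTL5-KO at 1 month, 0.472 in Ctrl and 0.524 in METTL5-cKO at 3 months). A count of 0 allows up to 3 counts, and no mouse comparison of Myl7 was made. Whether atria were left on the hearts is not stated in the sources used here.

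After TAC 3 of the 8 genes tested fell in METTL5-cKO hearts, namely Myl2, Myl3 and Myh7b, and none rose. Counts and figures of chains, here and below, include the kinase Mylk3. In NRVMs 8 of the 9 fell with AdMETTL5 by more than 2-fold, all but Myl1. With scaling by library size alone the same 8 were called, but Mylk3 (-0.94), Myl3 (-0.89) and Myl4 (-0.88, all log2) fell by less than 2-fold. At 3 months only Myl1 fell, and at 1 month no chain passed the test. These calls were made at an adjusted p under 0.05 in the quasi-likelihood test of edgeR, with the Benjamini-Hochberg method over all genes tested. Over all genes 12.7% were called after TAC (6.1% lower and 6.57% higher), 52.8% in NRVMs (25.7% lower, and 5.85% with an absolute log2 fold change over 1 in either direction), 0.0732% at 3 months (0.0244% lower) and 0.00612% at 1 month. The share of all counts taken by the 9 genes was 2.02 to 2.48% in METTL5-cKO hearts after TAC, where it overlapped that of Ctrl, and 0.636 to 0.717% in NRVMs with AdMETTL5 against 1.95 to 2.12% with AdGFP.

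**Figure D1:**
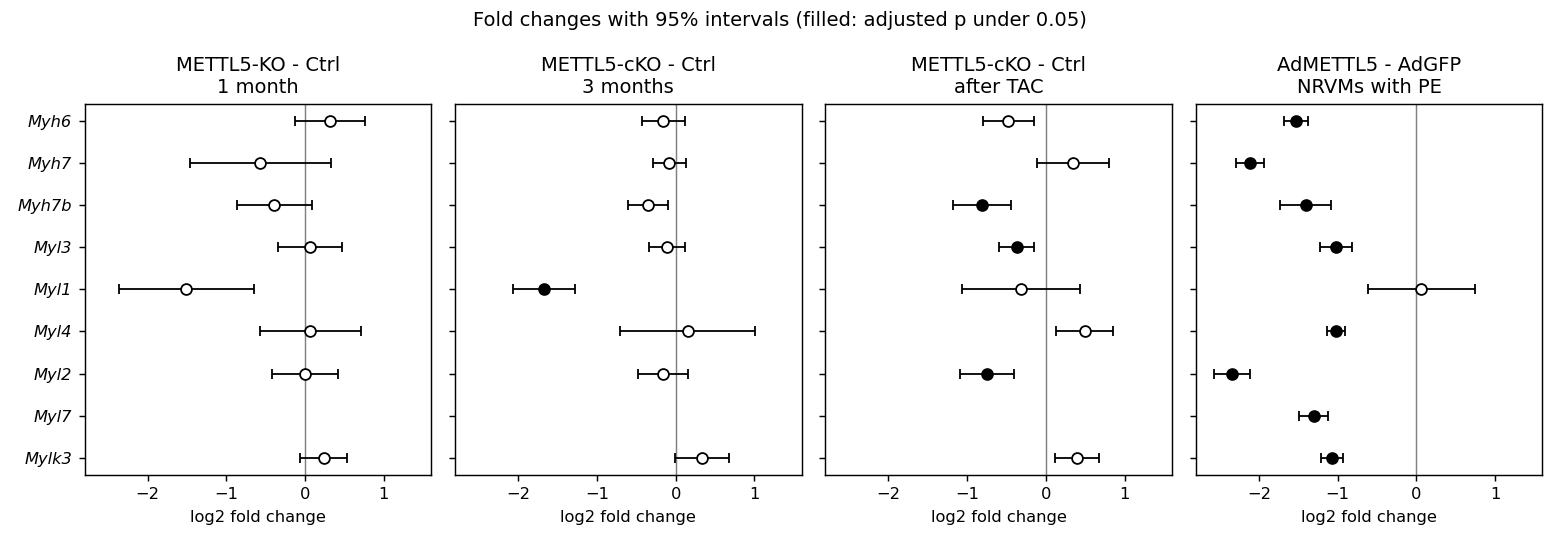
Log2 fold changes of each myosin chain gene in the 4 comparisons (x axis, log2 scale), with 95% intervals as bars and filled points where the adjusted p is under 0.05. In NRVMs all points but that of Myl1 lie below -1, while after TAC the called chains Myh7b, Myl2 and Myl3 lie between -0.81 and -0.37.

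The alpha heavy chain Myh6 was measured at 12056, 13980.0, 10783 and 13539.9 CPM in the Ctrl hearts after TAC and at 9336, 8308, 7511 and 11034 CPM in the METTL5-cKO hearts. The groups overlapped by 1 METTL5-cKO library, the one that stood apart. The log2 fold change of Myh6 was -0.48 (standard error 0.145) with an adjusted p of 0.0588 in edgeR's test, which missed the threshold, and an exact two-sided permutation test gave p = 0.0571. Without that library the value was -0.58 with an adjusted p of 0.00775 in edgeR, and DESeq2 called Myh6 lower with all libraries (adjusted p = 0.00593).

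The beta heavy chain Myh7 gave 3066, 4310.3, 3838 and 3798 CPM in Ctrl and 3169, 4696, 6636 and 4550.3 in METTL5-cKO hearts after TAC. One METTL5-cKO library lay among the Ctrl libraries and the other 3 lay above them. The log2 fold change was 0.34 (95% interval -0.12 to 0.80, edgeR adjusted p = 0.289), so no difference in Myh7 was detected at this spread. With a library left out it ranged from 0.14 (without METTL5-cKO library 3) to 0.50. On the mouse genome the exons of Myh7 overlap those of Mhrt, a noncoding RNA of the opposite strand, by 484 bases. The strandedness of the libraries is not given in the sources used here, so reads from the overlap cannot be assigned to one of them. After TAC Mhrt lay between 90.7 and 159 CPM in Ctrl and between 34.1 and 85.2 in METTL5-cKO hearts (exact two-sided permutation p = 0.0286), the opposite side from Myh7. Mhrt was looked at after its values were seen.

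The ratio of Myh7 to Myh6 counts, which no scaling between libraries can move, was 0.254, 0.308, 0.356 and 0.281 in the Ctrl hearts after TAC. It was 0.339, 0.565, 0.883 and 0.412 in the METTL5-cKO hearts. The lowest METTL5-cKO library lay just below the highest Ctrl library, and the other 3 lay above it. The mean log2 ratio differed by 0.79 (1.73-fold), with p = 0.0571 in the exact permutation test and 0.124 after adjustment over the 13 isoform ratios tested, so the shift did not pass the test. Without the METTL5-cKO library that stood apart it was 0.90, and over all fits with a library left out it ranged from 0.53 to 0.99. Myh7 made up 23.0% ± 2.55 of the counts of both chains in Ctrl and 34.4% ± 9.46 in METTL5-cKO hearts (SD, n = 4).

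**Figure D2:**
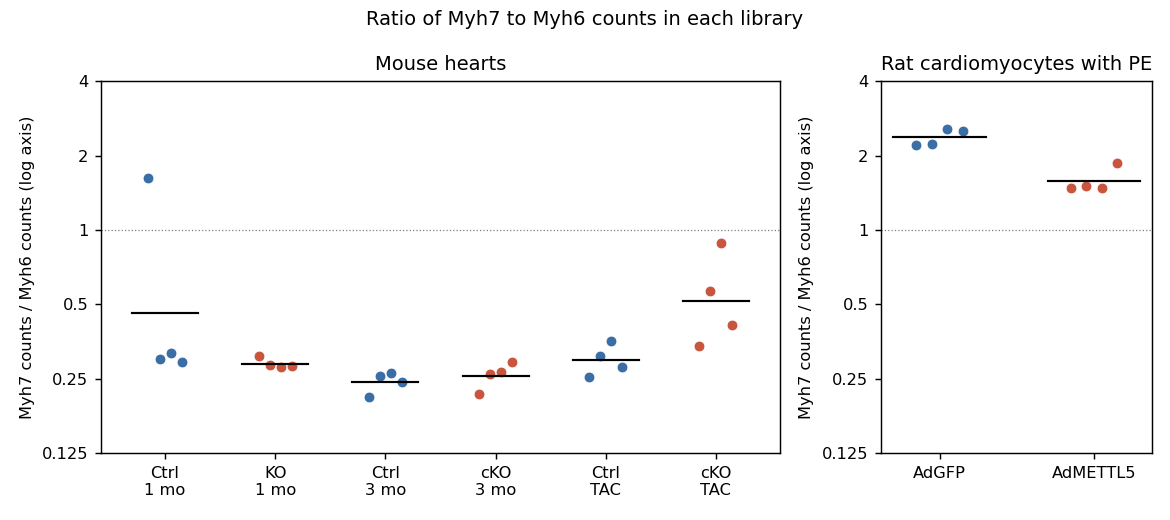
Ratio of Myh7 to Myh6 counts in each of the 32 libraries (y axis, log scale), by group, with the geometric mean of the group as a horizontal line. Ctrl library 1 at 1 month (1.63) lies above every other mouse library, the METTL5-cKO hearts after TAC spread from 0.339 to 0.883, and the NRVM groups do not overlap.

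In the unstressed METTL5-cKO hearts the heavy chain ratio differed from that of Ctrl by less than the spread between libraries. At 3 months it was 0.211, 0.257, 0.265 and 0.243 in Ctrl and 0.218, 0.261, 0.266 and 0.294 in METTL5-cKO. The difference in mean log2 ratio was 0.09 (exact permutation p = 0.400). Myh6 had 15651 ± 1356 CPM in Ctrl and 14053 ± 2110.4 in METTL5-cKO hearts, a log2 fold change of -0.16 (standard error 0.122, edgeR adjusted p = 0.925), and Myh7 had 3808 ± 349.8 and 3602 ± 211 CPM, a log2 fold change of -0.08 (SD, n = 4).

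At 1 month the ratio turned on a single library. It was 1.63, 0.301, 0.319 and 0.292 in Ctrl and 0.308, 0.284, 0.280 and 0.282 in METTL5-KO hearts. The first Ctrl library held 8808 CPM of Myh7, where the other 3 held 2813, 2441 and 2649 and the METTL5-KO hearts 2582 to 3071. The mean log2 ratio differed by -0.68 (exact permutation p = 0.0857) with this library and by -0.08 without it. Likewise the log2 fold change of Myh7 was -0.57 with it and 0.10 without it. Myh6 in that library was 5420.1 CPM, the lowest of the 8, and Myl2, at 3656 CPM, was the lowest too.

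In NRVMs both heavy chains fell with AdMETTL5, and the beta chain fell further. Myh7 was 10955, 11657, 10634 and 11607 CPM with AdGFP and 2436, 2542, 2378 and 3024 with AdMETTL5. Its log2 fold change was -2.11 (standard error 0.0802, edgeR adjusted p = 7.51e-09), or 4.32-fold lower. For Myh6 the libraries held 4985, 5233, 4151 and 4633 CPM with AdGFP and 1646, 1681, 1608 and 1629 with AdMETTL5, 2.89-fold lower. The groups were far apart for both genes. In all, 8 of the 9 genes lay lower with AdMETTL5 without overlap, where 23.1% of all genes tested did.

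Their ratio was 2.20, 2.23, 2.56 and 2.51 with AdGFP and 1.48, 1.51, 1.48 and 1.86 with AdMETTL5. The difference in mean log2 ratio was -0.59 (0.665-fold), with no overlap and p = 0.0286 in the exact permutation test, the smallest that 70 labelings allow, but 0.0743 after adjustment over the 13 ratios. In these neonatal cells Myh7 made up 70.3% ± 1.65 of the counts of both chains with AdGFP and 61.1% ± 2.59 with AdMETTL5 (SD, n = 4). The beta chain thus stayed the more counted of the pair in both groups, whereas Myh6 was the more counted in every mouse library but Ctrl library 1 at 1 month.

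Myh7b, the host gene of miR-499, was the least expressed of the 3 heavy chains. After TAC it was 101, 116, 138 and 109 CPM in Ctrl and 56.5, 51.5, 69.6 and 86.3 in METTL5-cKO hearts. The groups did not overlap, and the log2 fold change was -0.81 (standard error 0.164, edgeR adjusted p = 0.0174), the largest drop among the called chains after TAC. In 3-month-old hearts it was 123, 138, 143 and 116 CPM in Ctrl and 117, 105, 86.9 and 99.9 in METTL5-cKO, with a log2 fold change of -0.35 and a standard error of 0.111, which missed the threshold (edgeR adjusted p = 0.493). The values at 1 month, 118 ± 24.9 and 90.1 ± 23.3 CPM, overlapped (SD, n = 4).

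With AdMETTL5 the Myh7b level in NRVMs was 14.4, 13.4, 13.2 and 21.8 CPM against 38.6, 35.7, 44.5 and 48.1 with AdGFP, a log2 fold change of -1.41 (standard error 0.147, edgeR adjusted p = 8.66e-06). One AdMETTL5 library lay above the other 3 and still below every AdGFP library. All 3 heavy chain hosts of the microRNAs shown above therefore fell in these cells, while after TAC Myh7b passed edgeR's test and Myh6 missed it.

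**Figure D3:**
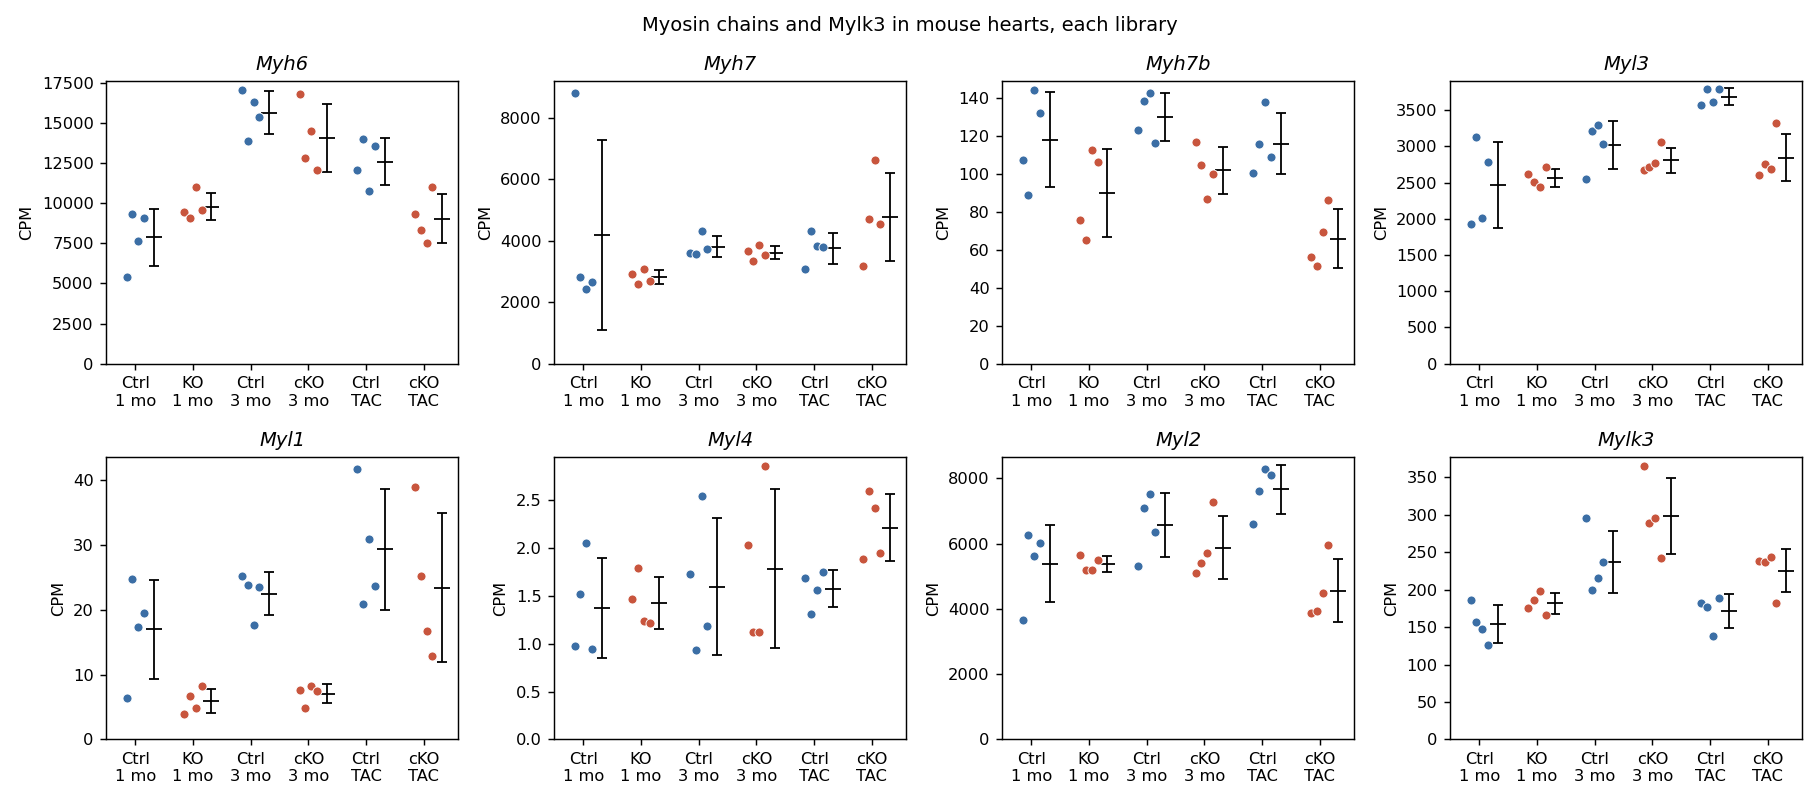
CPM of each myosin chain gene in each mouse heart library (y axes), by group, with points for libraries and bars for the mean ± SD (n = 4). After TAC the METTL5-cKO points lie below all Ctrl points for Myl2, Myl3 and Myh7b and above them for Myl4, and Myl1 lies lower in METTL5-cKO than in Ctrl at 3 months.

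Among the essential light chains the ventricular form, Myl3 (ENSMUSG00000059741), was 3568, 3787, 3607 and 3789.9 CPM in Ctrl hearts after TAC and 2609, 2756, 2693 and 3323 in METTL5-cKO hearts. The groups did not overlap, and the Ctrl libraries were the closer together. Myl3 fell by 0.37 on the log2 scale (standard error 0.100, edgeR adjusted p = 0.0399). This call was lost in 7 of the 8 fits that left out a library (edgeR adjusted p 0.0622 to 0.117) and without a filter on low counts (0.0609). Its values at 3 months, 3020.3 ± 335 and 2808 ± 173 CPM, and at 1 month, 2464 ± 590.2 and 2569.7 ± 125 CPM, overlapped (SD, n = 4).

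Myl4, the atrial and embryonic form, was rare in the mouse hearts. After TAC it was 1.69, 1.31, 1.56 and 1.75 CPM in Ctrl and 1.89, 2.60, 2.43 and 1.95 in METTL5-cKO hearts. All METTL5-cKO libraries lay above all Ctrl libraries. These are 27 to 36 counts against 39 to 60, few enough for counting error to be large, and the difference of 0.49 on the log2 scale (standard error 0.163) missed the threshold in edgeR (adjusted p = 0.0755). Myl4 was the only chain that lay higher without overlap. In all, 4 of the 8 chains had groups that did not overlap after TAC, where 18.6% of all genes tested did. The ratio of Myl4 to Myl3 was 1.81-fold higher in the METTL5-cKO hearts, without overlap (exact permutation p = 0.0286, 0.0743 over the 13 ratios).

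Myl1, the fast skeletal form, gave the clearest result of the unstressed hearts. At 3 months it was 25.1, 23.8, 17.6 and 23.5 CPM in Ctrl and 7.60, 4.87, 8.27 and 7.47 in METTL5-cKO hearts. It fell 3.19-fold (log2 fold change -1.67, 95% interval -2.07 to -1.28, edgeR adjusted p = 0.0102). The call was lost without Ctrl library 2 (adjusted p = 0.0576 in edgeR) or Ctrl library 4 (0.0507), and without a filter on low counts (0.0662). DESeq2 made the call with all libraries (adjusted p = 3.85e-14). The 1-month values had the same order, 6.43, 24.7, 17.3 and 19.4 CPM in Ctrl and 3.98, 6.77, 4.86 and 8.17 in METTL5-KO hearts, where Ctrl library 1 lay among the METTL5-KO libraries. Their log2 fold change was -1.51 (95% interval -2.37 to -0.65), with an unadjusted p of 0.00300 but an adjusted p of 0.973 in edgeR. Without Ctrl library 1 it was -1.79 (edgeR adjusted p = 0.175). Myl1 was the 1 chain of 8 with an unadjusted p under 0.05 at 1 month, where 4.57% of all genes had one, and DESeq2 called none either, with an adjusted p of 0.0781 for Myl1.

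Relative to Myl3 in the same library, Myl1 differed by -1.50 on the log2 scale at 1 month and by -1.58 at 3 months, both without overlap (exact permutation p = 0.0286 each, 0.0743 over the 13 ratios). After TAC the groups overlapped. Myl1 was 41.7, 20.9, 30.9 and 23.7 CPM in Ctrl and 38.9, 25.2, 16.8 and 12.8 in METTL5-cKO hearts, a difference of -0.32 on the log2 scale (standard error 0.334, edgeR adjusted p = 0.557), which was -0.11 without the METTL5-cKO library that stood apart, -0.10 without Ctrl library 1 and -0.68 without METTL5-cKO library 1. The effect after TAC minus that at 3 months was 1.37 (95% interval 0.47 to 2.26), with an unadjusted p of 0.00510 and an adjusted p of 0.209 in edgeR, so the difference between the settings did not pass the test either. Of 14 markers of fast skeletal muscle 5 were tested, Myl1 among them. Their summed level was 29.4 to 43.1 CPM in Ctrl and 18.4 to 45.5 in METTL5-cKO hearts at 3 months, where Casq1, a calcium buffer, made up 5.41 to 17.4 and 7.83 to 30.04 CPM. Myh1, Myh4 and Actn3 were at 0 in every library after TAC, and at 3 months no marker other than Myl1 was called. Tnni2, the fast troponin I, lay between 0.592 and 1.23 CPM in Ctrl and between 1.48 and 3.17 in METTL5-cKO hearts at 3 months, the opposite side from Myl1. Whether cells of skeletal muscle had a part in the Myl1 values was not tested.

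In NRVMs Myl3 was 3503, 3430.4, 2712 and 2804 CPM with AdGFP and 1594, 1663, 1485 and 1378 with AdMETTL5. Myl4 was 195, 191, 192 and 195 CPM against 93.0, 97.5, 87.7 and 104. Both fell by 1.02 on the log2 scale (edgeR adjusted p = 2.54e-06 and 3.14e-08), and the ratio of Myl4 to Myl3 differed by -0.00 on the log2 scale (exact permutation p = 1). Myl1 alone was not lower. It was 6.52, 6.56, 2.74 and 3.95 CPM with AdGFP and 6.95, 5.97, 5.38 and 2.42 with AdMETTL5, a log2 fold change of 0.06 with a 95% interval of -0.61 to 0.74 (edgeR adjusted p = 0.878).

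Myl2, the ventricular regulatory chain and the most expressed of the 9 per kb in the mouse hearts, fell after TAC. It was 6607, 7622, 8296 and 8115 CPM in Ctrl and 3857, 3939, 4484 and 5950.2 in METTL5-cKO hearts. No libraries overlapped, and the METTL5-cKO library nearest to Ctrl was again the one that stood apart. The log2 fold change was -0.75 (standard error 0.154, edgeR adjusted p = 0.0182), or 1.68-fold lower. In the separate groups without TAC the values overlapped. They were 6563 ± 972 CPM in Ctrl and 5873 ± 959 in METTL5-cKO hearts at 3 months. At 1 month they were 5388 ± 1184 in Ctrl and 5375 ± 232 in METTL5-KO hearts (SD, n = 4).

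In NRVMs Myl2 showed the largest change of the 9 genes. It was 2222, 2126, 1642 and 1738 CPM with AdGFP and 424, 405, 341 and 360.3 with AdMETTL5, 5.05-fold lower (log2 fold change -2.34, standard error 0.105, edgeR adjusted p = 1.62e-08). Myl7, the atrial regulatory chain, was 33.3, 28.8, 36.5 and 36.0 CPM against 14.1, 12.7, 14.4 and 13.3, 2.47-fold lower (edgeR adjusted p = 1.73e-07). Both fell, Myl2 by more. The ratio of Myl7 to Myl2 was 0.0150, 0.0135, 0.0223 and 0.0207 with AdGFP and 0.0333, 0.0314, 0.0423 and 0.0370 with AdMETTL5, 2.04-fold higher without overlap (exact permutation p = 0.0286, 0.0743 over the 13 ratios).

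**Figure D4:**
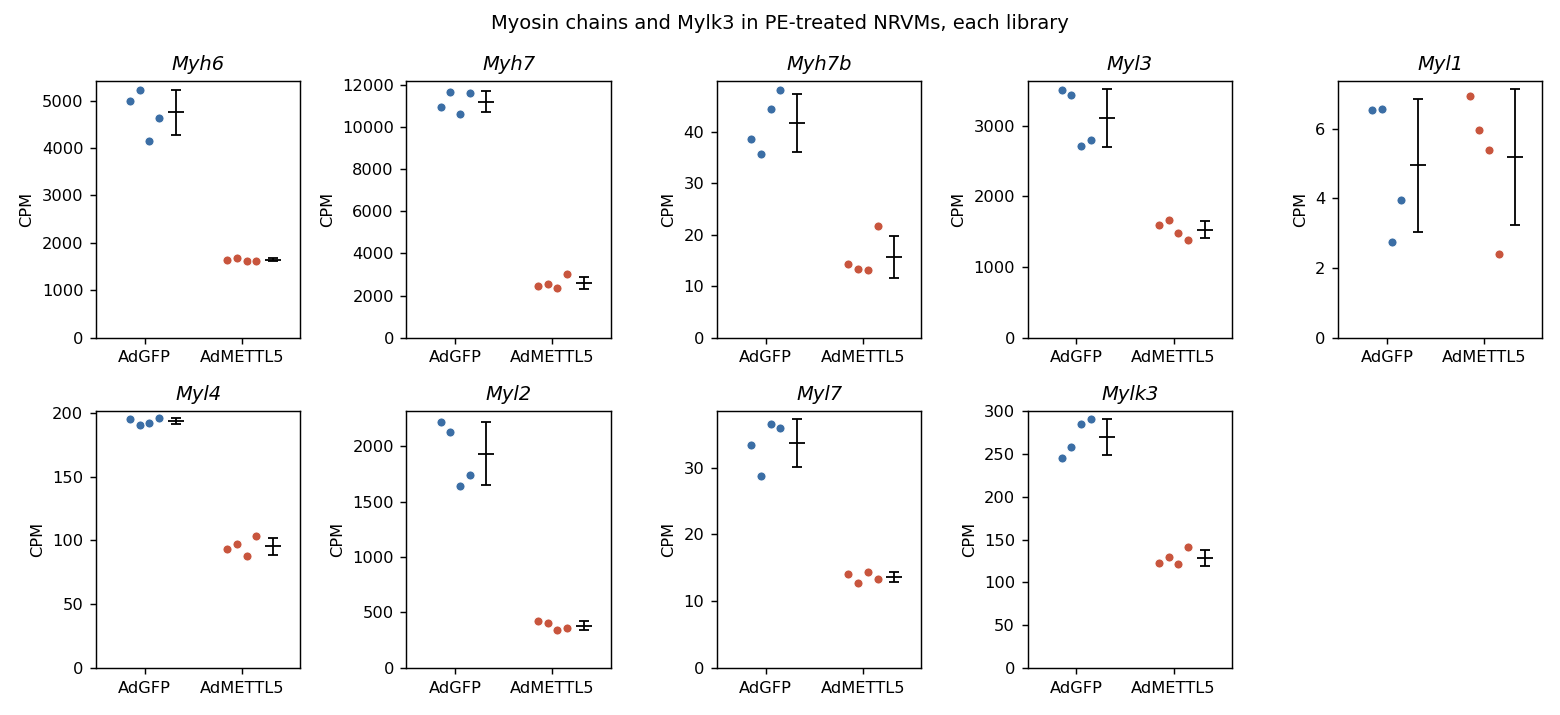
CPM of each myosin chain gene in each NRVM library (y axes) with AdGFP or AdMETTL5, with points for libraries and bars for the mean ± SD (n = 4). The AdMETTL5 points lie below all AdGFP points for every gene but Myl1, whose groups overlap.

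Mylk3, the kinase of Myl2, did not follow its substrate after TAC. It was 182, 177, 138 and 189 CPM in Ctrl and 238, 237, 244 and 182 in METTL5-cKO hearts. The library that stood apart was the one METTL5-cKO library among the Ctrl libraries. The log2 fold change was 0.39 (standard error 0.125, edgeR adjusted p = 0.0669) with it and 0.49 (adjusted p = 0.0106) without it, and DESeq2 called Mylk3 higher with all libraries (0.41, adjusted p = 0.0170). At 3 months it was 296, 199.7, 216 and 237 CPM in Ctrl and 366, 289, 296 and 243 in METTL5-cKO, with overlap (log2 fold change 0.33, edgeR adjusted p = 0.722). In NRVMs Mylk3 fell, from 246, 259, 285 and 291 CPM with AdGFP to 122, 129.5, 122 and 141 with AdMETTL5 (log2 fold change -1.07, edgeR adjusted p = 1.34e-07).

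The number of chains called after TAC moved with single libraries. It was 6 of 8 without the METTL5-cKO library that stood apart, when Myh6 (lower), Mylk3 and Myl4 (both higher, log2 fold change 0.55 for Myl4) joined Myl2, Myl3 and Myh7b. It was 0 without Ctrl library 2, Ctrl library 4 or METTL5-cKO library 2, and 2, with Myl3 lost, without any of the other 4, so no fit with a library left out kept the count of 3. Scaling by library size alone moved log2 fold changes up by 0.14 on average after TAC and gave 6 calls, 4 lower and 2 higher, against 3 lower and 0 higher. On that scale Myl4 (0.64) and Mylk3 (0.55) were the higher ones and Myh6 joined the lower. The share of all genes called in each of these altered fits is not given here. These counts of chains therefore cannot be told apart from a change in calls over all genes.

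No difference between the effect of METTL5-cKO after TAC and that at 3 months was detected for any of the 8 chains. This was a test of the difference itself (edgeR, 0 called, 0.00586% of all genes called). At an unadjusted p under 0.05, which 11.8% of all genes reached, there were Myl1, Myl2 and Myh7b. The difference for Myl2 was -0.57 (95% interval -1.02 to -0.13) and that for Myh7b -0.45 (-0.89 to -0.01), both on the log2 scale. Without the METTL5-cKO library after TAC that stood apart, Myl1 (1.56) and Myl2 (-0.74) passed, with adjusted p of 0.0327 and 0.0391 in edgeR.

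Other genes of the thick filament and its control are set against the 12.7% of all genes called after TAC. Of 14 genes for its assembly and turnover tested, 1 rose and none fell. Mybpc2, the fast skeletal myosin binding protein C, rose from 18.3 to 18.4 CPM over the Ctrl libraries to 35.5 to 49.8 over the METTL5-cKO libraries (log2 fold change 1.28, edgeR adjusted p = 0.00128). Of 11 genes of light chain phosphorylation tested, only Mylk, the smooth muscle kinase, passed the test (-0.47, edgeR adjusted p = 0.0446), and none of 21 regulators of myosin genes did. Of 10 other myosin chains, the nonmuscle heavy chain Myh10 (0.69) and the light chain Myl6b (0.80) rose. At 1 and 3 months no gene of these lists was called.

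With AdMETTL5 9 of the 14 thick filament genes tested fell and 3 rose, with a median log2 fold change of -0.76 where the median of all genes was 0.00. Among those that fell were Mybpc3, the cardiac myosin binding protein C (-1.48), Myom1, a protein of the M band (-1.33), Trim55, a ubiquitin ligase of the sarcomere (-1.19), and Unc45b, the chaperone that folds myosin heads (-0.94). Of 8 genes of light chain phosphorylation tested, 3 fell and 1 rose, none by more than 0.31 on the log2 scale. The phosphatase subunits Ppp1r12b (-0.31) and Ppp1cb (-0.21) fell and the kinase Rock2 (0.26) rose. Of 21 regulators of myosin genes 7 fell and 4 rose. The shares called in both lists lay near the 52.8% of all genes. Gata4 fell by 1.00 and Srf by 0.46, while Mef2c rose by 0.60 and Sp3 by 0.66, all on the log2 scale. Of 11 other myosin chains tested 6 fell, with the embryonic heavy chain Myh3 first (-1.80), and 2 rose, among them Myh10 (0.28).

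**Figure D5:**
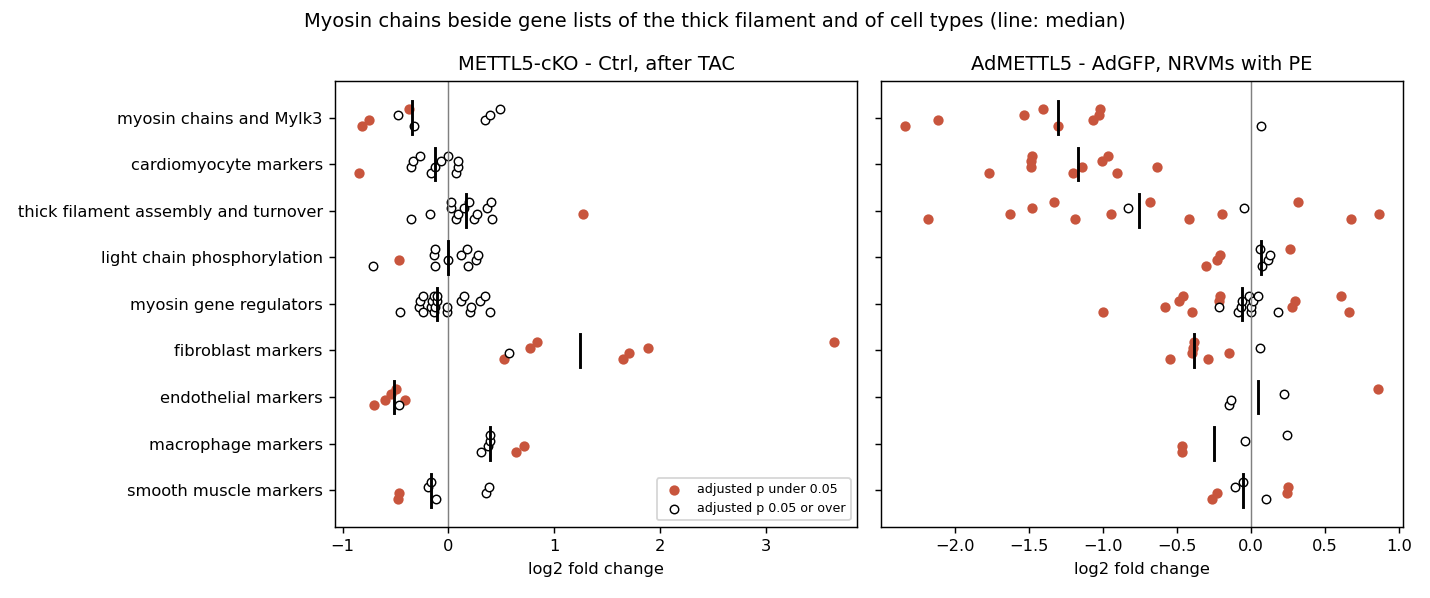
Log2 fold changes of the genes in each list (y axis) after TAC and in NRVMs, with a point per gene and a line at the list's median. The median of the myosin chains is -0.35 after TAC and -1.31 in NRVMs, and that of the cardiomyocyte markers -0.13 and -1.17.

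Markers of other cells moved in the same comparisons. Over all genes 6.57% were called higher and 6.1% lower after TAC. After TAC 7 of 8 fibroblast markers rose in METTL5-cKO hearts, with a summed level of 578 to 767 CPM in Ctrl and 924 to 2987 in METTL5-cKO. Of 6 endothelial markers 5 fell (585 to 698 CPM against 407 to 537), 2 of 6 macrophage markers rose, and 2 of 7 smooth muscle markers fell. Of 5 atrial markers tested, Nppa (3.49) and Dkk3 (2.66) rose and the potassium channel gene Kcnj3 fell (-1.63), on the log2 scale. Of 11 cardiomyocyte markers other than myosin 1 fell, Tnni3 (-0.84), and their summed level was 29609 to 31770.2 CPM in Ctrl and 25221 to 30033 in METTL5-cKO hearts. Set against the mean of these markers in the same library, the log2 differences were -0.55 for Myl2, -0.62 for Myh7b and -0.17 for Myl3 (exact permutation p = 0.0286 each). None passed after adjustment over 33 such tests (0.0673), and the values were 0.70 for Myl4 and 0.61 for Mylk3.

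In NRVMs 10 of 10 cardiomyocyte markers fell with AdMETTL5, with a summed level of 29740.1 to 37417 CPM against 12976 to 14544, and 6 of 7 fibroblast markers fell too (11531 to 12144 CPM against 9112 to 10042). Of 7 smooth muscle markers 2 rose and 2 fell, 1 of 4 endothelial markers rose and 2 of 4 macrophage markers fell. Over all genes 52.8% were called, 25.7% lower, so these small counts cannot be told apart from that share. Set against the cardiomyocyte markers, the chains parted. Myl2 (-1.02), Myh7 (-0.81) and Myh6 (-0.22) stayed below, and Myl1 (1.36), Myl3 (0.29) and Myl4 (0.29) lay above, each with p = 0.0286 in the exact permutation test. Mylk3 was at 0.24, while Myl7 was at 0.01 and Myh7b at -0.12. No such value passed after adjustment over the 33 tests (smallest 0.0673), where the same limit held. The part that a change in cell makeup or in all cardiomyocyte RNA had in these drops was not tested.

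The genes whose levels lay nearest to those of Myh7 were found by the mean absolute difference of log2 CPM, each gene centred within its table. Over the 8 NRVM libraries, among 9896 genes, they were Ankrd1 (0.11), Lamb3 (0.12), Myom2 (0.13), Cacna1g (0.13) and Nsg2 (0.16), with Myl2 next in rank 6 (0.17), Myh6 in rank 27 and Myl3 in rank 126, and the median of all genes was 1.06. These libraries share the difference between the groups, so the likeness includes that difference. Over the 24 mouse heart libraries, among 7409 genes, they were Pnpla7 (0.17), Rassf4 (0.17), Nub1 (0.17), Las1l (0.18) and Eef2 (0.18) against a median of 0.28 over all genes. There Myh6 was in rank 6414 (0.37) and Myl2 in rank 6743 (0.40), both beyond that median.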

How the data were processed

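The authors aligned reads with HISAT2 2.0.4 to GRCm38 or Rnor_6.0 and made estimated counts per gene with StringTie 2.1.4, and these were deposited as whole numbers without scaling (tools and versions per the submitters' processing notes, which also name DESeq2 1.4.5). The design had assumed plain counts, and rounding changed nothing. Strandedness and multi-mapping are not given in the sources used here, so reads shared by Myh6 and Myh7 may sit on either gene. Columns at 1 month were matched to samples, the others to groups.

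Each table was fitted by itself over all genes with edgeR (version 4.0.16, under R 4.3.3), using TMM factors, genes kept by filterByExpr (at least 10 counts, and 15 in total), glmQLFit and glmQLFTest, and Benjamini-Hochberg adjustment. CPM use TMM-scaled totals. Called genes had an adjusted p under 0.05. The difference between the genotype effects after TAC and at 3 months was tested by an interaction term over both tables. Ratios used counts plus 0.5, and single genes and ratios an exact two-sided permutation test over 70 labelings (smallest p 0.0286). After adjustment over a set, such a test can pass only if most of the set reach that p. Not passing therefore says little about a single gene or ratio. Totals of 14324700 to 21804907 counts and a square root of the common dispersion of 0.221 (1 month), 0.181 (3 months), 0.159 (TAC) and 0.0675 (NRVMs) set the precision. The tests were tried on simulated data, and every comparison returned 200 of 200 altered genes beside 8 to 14 false ones. The size of the change given to the altered genes is not stated here. How the number returned depends on that size or on the level of a gene was not tested. The 200 of 200 therefore does not show how many changes as small as those after TAC, or in genes as rare as Myl4, would be missed. The closest pair of libraries had a chi-square of 2.16 for each degree of freedom, so none was taken as a duplicate.

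The members, the lists and the tests were chosen with earlier results of these data known. All 9 genes were named in every comparison, and of each other list at most 4 called genes by adjusted p, with marker levels. Lengths and positions come from GENCODE M21 on GRCm38, sequences from RefSeq (GRCm38.p6). Every one of the 9 genes had a promoter entry. No lengths were used for the rat, so NRVM levels are not compared per kb between genes. Alternatives were DESeq2 1.42.0, its size factors in edgeR, library size alone, no filter, 10 counts in every library, an unadjusted p, a fold threshold, a pseudocount of 5, linear ratios, a replicate block at 1 month and each library left out, with values relative to cardiomyocyte markers added after seeing the data.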

Additional observations from a re-analysis of the deposited data

Results flagged for a closer look

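In each group of 4 libraries the highest or lowest value of a gene was set against the others by Dixon's ratio. Of the 69 sets tested, 6 passed, of which 3 are sets of Myl7 with a single value above 0, where the ratio is 1 by construction. Chance gives about 1 in 20 for values without such ties. The highest Myh7 value of the 1-month Ctrl hearts, 8808 CPM, was library 1, which also stood apart in Nppa and Actc1. The lowest Mylk3 value of the METTL5-cKO hearts after TAC, 182 CPM, was library 4, which had the lowest Nppa and Postn of its group. The highest Myh7b value with AdMETTL5 was 21.8 CPM, in the library that was also highest for Myh7 (3024 CPM) and Mylk3 (141 CPM). Myl7 passed in METTL5-KO hearts at 1 month (0.348 CPM), in Ctrl hearts at 3 months (0.472) and in METTL5-cKO hearts at 3 months (0.524), each time as the one library of its group above 0, with 7, 10 and 11 counts.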

How the results depend on the processing

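Of the 704 values of single genes and ratios under the alternatives, 622 kept their direction and their side of the threshold, 47 changed sign, 25 lost and 10 gained a call. Shares of all genes called under these alternatives are not given here, except 4.57% at an unadjusted p at 1 month. Counts of chains called moved as follows. At an unadjusted p they were 1 at 1 month, 2 at 3 months and 6 after TAC. Without a filter the count at 3 months was 0. After TAC it was 5 with DESeq2, 6 with library size alone and 0 with a log2 fold change over 1 required. Leaving out each library in turn gave 0 to 1 at 3 months, 0 to 6 after TAC (never the 3 of all libraries), 0 to 2 for the interaction, 0 at 1 month and 8 in NRVMs. Values changed sign as follows. Myl2 at 1 month was 0.000541 with DESeq2, 0.0714 with library size alone, 0.0121 without a filter and 0.0244 with the replicate block. Relative to cardiomyocyte markers, Myl3 at 1 month was -0.0215, Myh7 at 3 months 0.00188, and in NRVMs Myl3 0.29, Myl4 0.29, Myl7 0.00683 and Mylk3 0.24. The ratio of Myl4 to Myl3 at 1 month was -0.00934 with a pseudocount of 5 and -3.26e-05 as a linear difference, and that of Myl1 to Myl3 after TAC 0.000534 as a linear difference. With a library left out, signs changed at 1 month for Myh7 (-0.75 to 0.10), Myl4 (-0.0717 to 0.31), Myl3 (-0.0383 to 0.20), Myl2 (-0.15 to 0.0797) and the ratio of Myl4 to Myl3 (-0.20 to 0.32), at 3 months for Myl4 (-0.16 to 0.47) and that ratio (-0.00454 to 0.46), after TAC for the ratio of Myl1 to Myl3 (-0.34 to 0.31), in NRVMs for Myl1 (-0.14 to 0.31) and the ratio of Myl4 to Myl3 (-0.0921 to 0.0573), and in the interaction for Mylk3 (-0.0452 to 0.19). The causes were not tested.

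At 1 month libraries with the same number correlated at 0.239, 0.120, -0.107 and 0.0782, and only those numbered 1 correlated best with each other, so the samples share only a number, and the replicate block gave 0 calls. No paired analysis was possible because the columns of the other tables carry no replicate number of the labels. Myl4 and Myl7 had few counts in the mouse hearts.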

Other observations

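Gm31251, another gene of the opposite strand whose exons overlap those of Myh7, lay between 19.0 and 23.3 CPM in the Ctrl hearts after TAC and between 6.29 and 10.4 in the METTL5-cKO hearts (exact two-sided permutation p = 0.0286). At 3 months it lay between 26.9 and 47.5 CPM in Ctrl and between 20.8 and 27.0 in METTL5-cKO hearts (p = 0.0571 in the same exact test). Mhrt at 3 months lay between 99.0 and 206 CPM in Ctrl and between 75.4 and 122 in METTL5-cKO hearts, with overlap. Both genes were looked at after their values were seen, and without strand their reads cannot be told apart from those of Myh7.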
